A study of Mus musculus with 6 samples.

Results

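The 10 genes described here belong to the TNF and TNF receptor superfamilies and were measured in sorted lymphocytes of the mouse mammary gland late in pregnancy. They were chosen by symbol as 6 receptor genes (Tnfrsf9, Tnfrsf18, Tnfrsf4, Tnfrsf1b, Cd27 and Fas) and 4 ligand genes (Fasl, Tnfsf10, Tnfsf14 and Tnfsf8). All 10 were found once each among the 55450 genes of the table. Bulk RNA-seq libraries came from 3 samples of double negative (DN) NK1.1+ lymphocytes and 3 samples of CD8 beta+ T cells, both sorted from glands of mice at gestation day E18.5. The labels give no strain, genotype, treatment or age for either group, and they do not name the markers that the DN cells lack. Nothing in them says that the 3 libraries of a group came from separate animals, so the p-values measure only the spread between these libraries, which may be technical. In bulk samples, fewer cells of a type and less RNA per cell cannot be told apart.

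Ligands of the TNF superfamily are mostly membrane-anchored proteins that assemble into trimers and engage receptors on a neighbouring cell. Receptors of the costimulatory kind, such as 4-1BB, GITR, OX40, CD27 and TNFR2, recruit TRAF adaptors and feed into NF-kappa-B signalling. Receptors with a death domain, such as FAS, can instead recruit FADD and caspase 8 and lead to apoptosis. Cytotoxic T cells and natural killer (NK) cells use the ligands FASL and TRAIL to kill target cells.

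The libraries held 7961360 to 14367299 counts, and 16552 to 18646 genes were detected per library. Levels are given as CPM, which are read counts divided by library sizes that were scaled by the TMM method. Cd8b1, the gene of the CD8 beta chain used in the sort, was at 1.21 to 4.31 CPM in DN NK1.1+ libraries, against 892 to 1007 CPM in CD8 beta+ libraries. Klrb1c, the gene of NK1.1, was at 618 to 659 CPM in DN NK1.1+ libraries and 30.8 to 41.8 CPM in CD8 beta+ libraries, so the libraries matched their labels for these 2 markers. Cd8a, the gene of the CD8 alpha chain, was lower in DN NK1.1+ libraries but not absent, at 174, 161 and 151 CPM there, against 871, 852 and 1009 CPM in CD8 beta+ libraries. As the labels do not say which markers the DN cells lack, the name double negative could not be checked. A list of 12 NK and innate lymphoid markers had 8 higher members and 1 lower one, and its summed level was 2308 to 2506 CPM there and 605 to 848 CPM in CD8 beta+ libraries. All 6 tested of 9 gamma-delta T cell markers were higher, with sums of 444 to 485 CPM in DN NK1.1+ and 125 to 159 CPM in CD8 beta+ libraries. Among these 6, Trdv4 had 19, 14 and 32 counts in DN NK1.1+ libraries and 0 in each CD8 beta+ library. Tcrg-V6, Sox13 and Blk were too low to be tested. At an edgeR adjusted p under 0.05, 7.84% of all tested genes were higher and 5.99% lower. The DN NK1.1+ group was compared as sorted, and its mixture of cells was not resolved. The titles call its cells T cells, and another label calls them lymphocytes.

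DN NK1.1+ libraries had more transcript of the costimulatory receptors 4-1BB (Tnfrsf9) and GITR (Tnfrsf18) and of the death ligand TRAIL (Tnfsf10), and less of the receptors CD27 (Cd27) and FAS (Fas). Of the 10 genes, 3 were higher and 2 lower at an adjusted p under 0.05 in edgeR's quasi-likelihood test. Over all 13171 genes tested, 7.84% were higher and 5.99% lower. The DN NK1.1+ and CD8 beta+ values did not overlap for those 5 genes, and this held for 30.6% of all tested genes. The members were picked with earlier results of these data known, so these counts describe the set and do not test it. The levels of Tnfrsf1b, Fasl, Tnfsf14, Tnfsf8 and Tnfrsf4 did not pass the test.

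**Figure D1:**
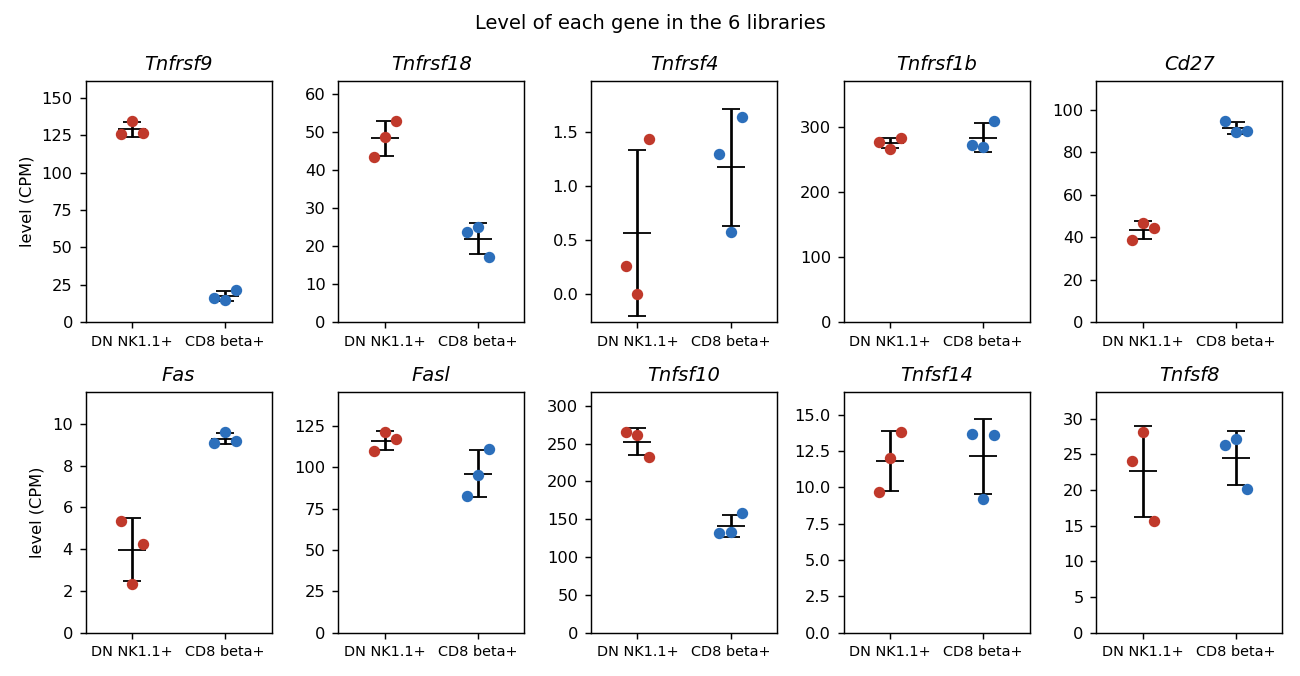
Level in CPM (linear vertical axes that differ between panels) of each gene in the 3 DN NK1.1+ libraries (red, left) and the 3 CD8 beta+ libraries (blue, right). Points are libraries and black bars show the mean and SD. Tnfrsf9 lies between 126 and 134 CPM in DN NK1.1+ libraries and between 14.9 and 21.3 CPM in CD8 beta+ libraries, whereas the points of Tnfrsf1b overlap.

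Promoter sequence is shown for the 5 genes that passed the test. The windows are the 250 bases before each RefSeq start site (build GRCm38.p6, the same assembly as mm10), written 5′ to 3′ on the strand of the gene. All 10 genes had an entry, and Tnfrsf9 had 2 start sites, which made 11 windows. These starts differ in part from those of the GENCODE M21 annotation. There, Tnfrsf9 begins at 150914562, so both of its windows lie within the gene. The sequence before that GENCODE start was not searched. The windows of Tnfrsf18, Tnfsf10 and Tnfsf8 run past the GENCODE starts of these genes. Capitals mark matches to the NF-kappa-B consensus or to the AP-1 motif TGANTCA.
Tnfrsf9, upstream start (chr4:150919905-150920154, plus strand): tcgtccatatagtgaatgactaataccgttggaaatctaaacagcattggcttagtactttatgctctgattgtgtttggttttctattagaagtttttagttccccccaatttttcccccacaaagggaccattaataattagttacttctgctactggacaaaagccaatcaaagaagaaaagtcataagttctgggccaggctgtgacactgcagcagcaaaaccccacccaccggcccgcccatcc
Tnfrsf9, downstream start (chr4:150927749-150927998, plus strand): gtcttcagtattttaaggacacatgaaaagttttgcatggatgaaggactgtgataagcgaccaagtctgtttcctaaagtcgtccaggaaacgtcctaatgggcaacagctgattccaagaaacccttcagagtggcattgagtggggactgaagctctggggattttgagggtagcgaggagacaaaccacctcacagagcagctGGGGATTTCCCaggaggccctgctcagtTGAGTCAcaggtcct
Tnfrsf18 (chr4:156026072-156026321, plus strand): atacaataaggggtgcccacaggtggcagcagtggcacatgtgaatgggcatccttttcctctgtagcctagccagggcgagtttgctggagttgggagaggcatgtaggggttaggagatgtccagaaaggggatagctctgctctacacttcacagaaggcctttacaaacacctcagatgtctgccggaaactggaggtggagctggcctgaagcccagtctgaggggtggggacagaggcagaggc
Tnfsf10 (chr3:27316827-27317076, plus strand): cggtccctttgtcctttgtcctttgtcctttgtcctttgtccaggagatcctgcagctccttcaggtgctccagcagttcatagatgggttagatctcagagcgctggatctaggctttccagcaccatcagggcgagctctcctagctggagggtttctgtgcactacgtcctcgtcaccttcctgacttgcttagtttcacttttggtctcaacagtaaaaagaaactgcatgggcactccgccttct
Cd27 (chr6:125237028-125237277, minus strand): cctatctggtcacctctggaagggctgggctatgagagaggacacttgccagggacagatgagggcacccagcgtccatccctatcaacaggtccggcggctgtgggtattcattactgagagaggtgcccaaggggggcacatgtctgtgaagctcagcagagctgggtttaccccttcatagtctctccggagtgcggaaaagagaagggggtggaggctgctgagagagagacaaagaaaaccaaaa
Fas (chr19:34290409-34290658, plus strand): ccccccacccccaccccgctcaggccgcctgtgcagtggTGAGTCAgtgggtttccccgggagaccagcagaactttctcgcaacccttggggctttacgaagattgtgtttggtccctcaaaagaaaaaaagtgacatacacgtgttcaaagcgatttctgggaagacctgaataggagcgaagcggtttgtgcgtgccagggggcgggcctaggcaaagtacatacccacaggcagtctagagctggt
Both strands were searched. The only NF-kappa-B match lay before the downstream start of Tnfrsf9, where 2 overlapping matches ran from base -43 to base -33 of the start site. The consensus was found in 3.9% of all 32851 promoter windows of this length. The AP-1 motif matched in 3 of the 11 windows, those of the downstream Tnfrsf9 start (base -15 to -9), of Fas (base -211 to -205) and of Tnfsf14 (base -160 to -154), against 6.75% of all windows. Neither the RUNX motif TGTGGT (14% of all windows) nor the T-box motif GGTGTGA (3.33%) occurred in the 11 windows. These matches are letters in a sequence, and no binding was measured.

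Of the 6 receptor genes, Tnfrsf9 had the largest fold change. It encodes 4-1BB, a costimulatory receptor that activated T cells and NK cells put on their surface. Tnfrsf9 was at 126, 134 and 127 CPM in DN NK1.1+ libraries, against 16.4, 14.9 and 21.3 CPM in CD8 beta+ libraries. Every DN NK1.1+ library was thus far above every CD8 beta+ library, and the spread within each group was small beside the gap. The log2 fold change was 2.88 (SE 0.141, edgeR adjusted p = 1.97e-09), or 7.38-fold. It lay between 2.76 and 3.04 under 16 other settings, each library left out in turn among them. Over the 6 libraries, which form 2 clusters by group, the genes whose log2 CPM followed Tnfrsf9 most closely were Klra4 and Pde4a (Pearson's r of 0.9993 each) and Klrb1a (0.9992). Klra4 and Klrb1a encode NK cell receptors of families with close copies, so their counts may be shared with relatives, and Pde4a encodes a cyclic AMP phosphodiesterase. A correlation above 0.95 was reached by 345 of the 6107 genes searched, and all of these share the same 2 groups of libraries.

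Tnfrsf18, the gene of GITR, was also higher. GITR is a costimulatory receptor best known from regulatory T cells and activated T cells. Its level was 43.4, 48.7 and 52.9 CPM in DN NK1.1+ libraries, against 23.8, 25.0 and 17.2 CPM in CD8 beta+ libraries, with no overlap. The log2 fold change was 1.13 (SE 0.172, edgeR adjusted p = 2.79e-04). An antisense gene, Gm16008, covers 27.2% of the exon bases of Tnfrsf18 on the other strand, and the use of strand in counting is not given. Gm16008 itself had 11, 13 and 15 counts in DN NK1.1+ libraries and 4, 10 and 0 counts in CD8 beta+ libraries, whereas Tnfrsf18 had at least 167 counts in a library.

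Tnfrsf4 encodes OX40 and lies next to Tnfrsf18 on chromosome 4, with 9.55 kb between the genes. It was close to the limit of detection in both groups. Its counts were 3, 0 and 19 in DN NK1.1+ libraries and 10, 8 and 16 in CD8 beta+ libraries. The values overlapped, and most of the DN NK1.1+ counts came from replicate 3. The log2 fold change was -1.004 with a 95% interval of -3.39 to 1.39 (edgeR adjusted p = 0.655), so that a difference in either direction was not detectable at this depth. Without DN NK1.1+ replicate 3 it was -3.07 (adjusted p = 0.237). Regulatory T cells carry OX40 and GITR. Of 7 tested markers of regulatory and CD4 T cells, 2 were higher (Il2ra and Zbtb7b) and 2 lower (Ctla4 and Cd5) in DN NK1.1+ libraries. Their defining factor Foxp3 had 0, 1 and 7 counts in DN NK1.1+ libraries and 0, 6 and 0 counts in CD8 beta+ libraries. Il2ra averaged 15.2 CPM in DN NK1.1+ and 7.80 CPM in CD8 beta+ libraries (edgeR adjusted p = 0.0224), and Ctla4 averaged 7.27 CPM in DN NK1.1+ and 25.2 CPM in CD8 beta+ libraries (edgeR adjusted p = 2.18e-04). These markers other than Cd5 were named after their values were seen, and their part in the Tnfrsf18 and Tnfrsf4 values was not tested.

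Tnfrsf1b, which encodes TNFR2, the TNF receptor without a death domain, had the highest level per length of the 10 genes in both groups. It was at 277, 267 and 283 CPM in DN NK1.1+ libraries and 273, 269 and 309 CPM in CD8 beta+ libraries. The ranges overlapped, and the log2 fold change was -0.04 with a 95% interval of -0.24 to 0.16 (edgeR adjusted p = 0.848). The sign of this small difference turned when libraries were scaled by size alone and when CD8 beta+ replicate 3 was left out. The gene of TNFR1, the TNF receptor with a death domain, passed the test. This gene, Tnfrsf1a, averaged 53.1 ± 4.22 CPM in DN NK1.1+ libraries and 27.0 ± 3.36 CPM in CD8 beta+ libraries (SD, n = 3 each; log2 fold change 0.98, SE 0.149, edgeR adjusted p = 2.85e-04).

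Cd27 encodes a costimulatory receptor of naive and memory T cells that is lost on the most differentiated T cells and NK cells. Its level was 38.7, 46.7 and 44.5 CPM in DN NK1.1+ libraries, against 94.6, 89.6 and 90.2 CPM in CD8 beta+ libraries. All DN NK1.1+ values were below all CD8 beta+ values. The log2 fold change was -1.08 (SE 0.117, edgeR adjusted p = 1.11e-05) and stayed between -1.14 and -1.004 under 16 other settings. An annotated microRNA, Mir8113, lies within the exons of Cd27 and had 0 counts in every library.

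Fas encodes the death receptor that FASL engages. It was low, at 5.34, 2.35 and 4.25 CPM in DN NK1.1+ libraries, against 9.10, 9.61 and 9.16 CPM in CD8 beta+ libraries. Counts were 62, 28 and 56 in DN NK1.1+ and 70, 133 and 89 in CD8 beta+ libraries. The CD8 beta+ values lay close together above all DN NK1.1+ values, and the log2 fold change was -1.22 (SE 0.355, edgeR adjusted p = 0.0312). This call rests on all libraries: leaving out any one of them other than DN NK1.1+ replicate 1 raised the adjusted p to between 0.0551 and 0.113 (0.0155 to 0.113 over all 16 settings). The genes whose log2 CPM ran most like that of Fas over the 6 libraries were Tgfbrap1 (Pearson's r of 0.9948), Nsf (0.9898) and Phc3 (0.9849), and 44 of 6107 genes exceeded 0.95.

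Among the ligands, Tnfsf10 passed the test. It encodes TRAIL, a death ligand of NK cells and activated T cells. Tnfsf10 was at 265, 261 and 232 CPM in DN NK1.1+ libraries, against 131, 133 and 158 CPM in CD8 beta+ libraries. The groups did not overlap, and the log2 fold change was 0.84 (SE 0.104, edgeR adjusted p = 4.08e-05), or 1.79-fold. Tnfrsf10b, the gene of its mouse death receptor, averaged 11.4 ± 0.181 CPM in DN NK1.1+ libraries and 8.998 ± 0.814 CPM in CD8 beta+ libraries (SD, n = 3 each) and did not pass (edgeR adjusted p = 0.429). Its log2 fold change was 0.34, with a 95% interval of -0.17 to 0.86.

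Fasl, the gene of FAS ligand, was high in both groups. It was at 110, 121 and 117 CPM in DN NK1.1+ libraries and 82.5, 95.1 and 111 CPM in CD8 beta+ libraries. CD8 beta+ replicate 3 reached into the DN NK1.1+ range, and the log2 fold change was 0.27 with a 95% interval of 0.02 to 0.52 (edgeR adjusted p = 0.161). Without that library the log2 fold change was 0.37 and the adjusted p was 0.0462, which passes the threshold (0.0462 to 0.521 over all 16 settings). Per length, Fasl was at 138 ± 5.93 TPM (counts per exon length, scaled to a common total) in DN NK1.1+ and 107 ± 24.9 TPM in CD8 beta+ libraries, and Fas was at 4.46 ± 1.78 TPM in DN NK1.1+ and 9.65 ± 0.762 TPM in CD8 beta+ libraries (SD, n = 3 each).

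Tnfsf14, the gene of LIGHT, was at 9.66, 11.98 and 13.8 CPM in DN NK1.1+ libraries and 13.6, 9.17 and 13.6 CPM in CD8 beta+ libraries. The ranges overlapped, and the log2 fold change was -0.03 with a 95% interval of -0.57 to 0.51 (adjusted p = 0.96). Tnfsf8, the gene of CD30 ligand, was at 24.1, 28.2 and 15.6 CPM in DN NK1.1+ libraries and 26.3, 27.2 and 20.2 CPM in CD8 beta+ libraries. Replicate 3 was the lowest in each group, and the log2 fold change was -0.12 with a 95% interval of -0.59 to 0.36 (adjusted p = 0.811). Neither ligand gave a steady direction: that of Tnfsf14 turned positive under library size scaling, limma-voom and 3 of the settings that leave out a library, and that of Tnfsf8 without DN NK1.1+ replicate 3.

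The order of levels per length was similar at the top and differed below it. Tnfrsf1b led in DN NK1.1+ libraries at 166 ± 6.29 TPM, followed by Fasl, then Tnfsf10 at 111 ± 11.9 TPM and Tnfrsf9 at 109 ± 5.68 TPM. Tnfsf10 and Tnfrsf9 overlapped there, whereas Tnfrsf18 at 72.9 ± 4.47 TPM and Cd27 at 42.8 ± 3.36 TPM each stood apart from their neighbours. Tnfsf14 at 14.7 ± 2.06 TPM and Tnfsf8 at 13.8 ± 4.17 TPM overlapped, and Fas and Tnfrsf4 came last. In CD8 beta+ libraries Tnfrsf1b was again first, at 160 ± 26.4 TPM, followed by Fasl, and Cd27, which overlapped with Fasl, at 84.2 ± 6.23 TPM. Tnfsf10 at 57.8 ± 11.3 TPM and Tnfrsf18 at 30.6 ± 3.69 TPM came next. Tnfsf14, Tnfrsf9 and Tnfsf8 overlapped at 14.2 ± 3.61, 13.9 ± 3.90 and 13.7 ± 1.12 TPM, and Fas and Tnfrsf4 were lowest. Tnfrsf9 thus ranked 4 of 10 in DN NK1.1+ libraries and 7 of 10 in CD8 beta+ libraries.

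The mixture of receptor transcripts differed accordingly. Summed over 28 receptor genes of the family, TPM was 517 ± 6.51 in DN NK1.1+ and 397 ± 37.2 in CD8 beta+ libraries (SD, n = 3 each). Tnfrsf9 made up 21.1% ± 1.299 of that sum in DN NK1.1+ libraries and 3.47% ± 0.633 in CD8 beta+ libraries. Cd27 made up 8.28% ± 0.753 in DN NK1.1+ libraries and 21.2% ± 0.703 in CD8 beta+ libraries. Tnfrsf1b held the largest share in every library, with 32.1% ± 0.9501 in DN NK1.1+ and 40.1% ± 2.75 in CD8 beta+ libraries. Of the summed TPM of 18 ligand genes, Fasl and Tnfsf10 made up 35.1% ± 0.763 and 28.1% ± 2.32 in DN NK1.1+ libraries, against 31.5% ± 3.95 and 17.0% ± 1.53 in CD8 beta+ libraries. Shares within a sum are tied to each other, and no test was made of them.

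**Figure D2:**
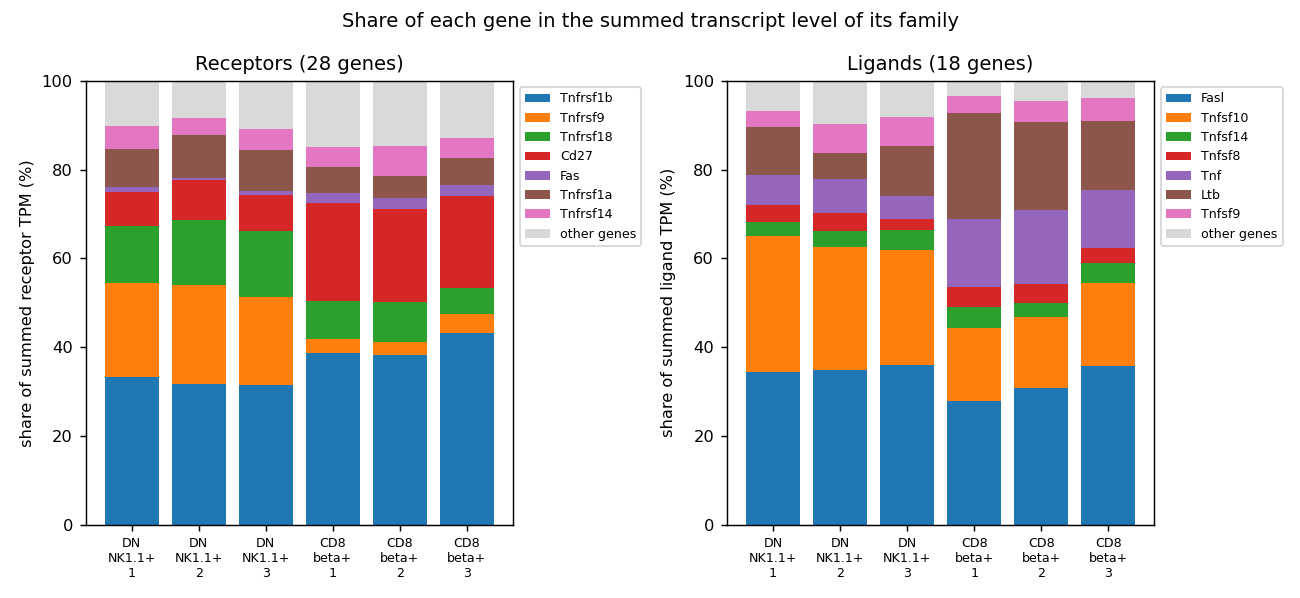
Share of each gene (vertical axis, percent) in the summed TPM of 28 receptor genes (left) and 18 ligand genes (right) in each library, with DN NK1.1+ libraries left of CD8 beta+ libraries. The Tnfrsf9 segment is 19.8% to 22.4% in DN NK1.1+ libraries and 2.97% to 4.18% in CD8 beta+ libraries, and the Cd27 segment is the smaller one in DN NK1.1+ libraries.

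The other partners of these receptors and ligands were mostly low. Tnfsf9, the ligand of 4-1BB, was at 7.67, 15.3 and 14.3 CPM in DN NK1.1+ libraries and 7.54, 9.90 and 10.6 CPM in CD8 beta+ libraries (edgeR adjusted p = 0.439). An opposite-strand gene, Gm11110, shares 14.9% of the exon bases of Tnfsf9, so its values are uncertain. Cd70, the ligand of CD27, had 0 counts in all 6 libraries. Such a count allows up to 0.0817 CPM over the DN NK1.1+ group and 0.096 CPM over the CD8 beta+ group, for counting error only. Tnfsf18, the ligand of GITR, had 1 count in DN NK1.1+ and 0 counts in CD8 beta+ libraries. Tnfsf4, the ligand of OX40, had 5, 1 and 8 counts in DN NK1.1+ libraries and 1, 0 and 0 counts in CD8 beta+ libraries. Tnfrsf8, the receptor of CD30 ligand, had 0, 1 and 0 counts in DN NK1.1+ libraries and 0, 12 and 6 counts in CD8 beta+ libraries. None of these 3 genes passed the filter on low counts, and a ratio of either of the last 2 would rest on a single count in 1 library. Tnfrsf14, the gene of the LIGHT receptor HVEM, averaged 14.8 ± 1.97 CPM in DN NK1.1+ and 14.2 ± 3.40 CPM in CD8 beta+ libraries (SD, n = 3 each; edgeR adjusted p = 0.934). Ltbr, the other LIGHT receptor gene, did not exceed 1.44 CPM in a library.

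Of 14 other ligand genes of the superfamily, 7 were tested, of which 1 was higher and 3 were lower. Over all tested genes, 7.84% were higher and 5.99% lower. The median log2 fold change of the 7 was -0.46, against -0.0033 over all tested genes. Tnf was at 18.4, 22.5 and 14.9 CPM in DN NK1.1+ libraries, against 38.2, 43.4 and 34.7 CPM in CD8 beta+ libraries (log2 fold change -1.06, SE 0.186, edgeR adjusted p = 0.001). Ltb, whose product anchors lymphotoxin alpha at the membrane, was at 26.7, 15.7 and 28.4 CPM in DN NK1.1+ libraries, against 55.4, 47.7 and 37.6 CPM in CD8 beta+ libraries. Its log2 fold change was -0.99 (SE 0.220, edgeR adjusted p = 0.00845), and the adjusted p was 0.0503 without CD8 beta+ replicate 1 (2.26e-07 to 0.0503 over all 16 settings). Lta did not exceed 2.47 CPM in a library and did not pass (edgeR adjusted p = 0.804). The third lower gene was Tnfsf11, which is under 5 CPM and was named after its values were seen. It encodes RANKL and had 9, 3 and 3 counts in DN NK1.1+ and 23, 46 and 31 counts in CD8 beta+ libraries (edgeR adjusted p = 0.0158). This call ended when DN NK1.1+ replicate 2 or 3 or CD8 beta+ replicate 1 or 2 was left out (adjusted p = 0.0568 to 0.0858; 0.00172 to 0.0858 over all 16 settings), and its log2 fold change of -2.90 was -3.67 without DN NK1.1+ replicate 1.

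Tnfsf12, the gene of the ligand TWEAK, was the one that rose. It was at 8.02, 12.7 and 8.65 CPM in DN NK1.1+ libraries, against 0.910, 0.361 and 0 CPM in CD8 beta+ libraries. The groups were far apart, with a log2 fold change of 4.58 (SE 0.674, edgeR adjusted p = 3.43e-04). It was 5.50 without CD8 beta+ replicate 1 and 4.02 without CD8 beta+ replicate 3. Tnfsf12 had only 7, 5 and 0 counts in CD8 beta+ libraries, so the size of the change is imprecise. Its exons share 48.3% of their bases with Tnfsfm13, an annotated gene on the same strand. Tnfsfm13 had 13, 4 and 87 counts in DN NK1.1+ libraries and 0, 4 and 1 counts in CD8 beta+ libraries, so that reads of these 2 genes may have been split between them.

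Of 22 other receptor genes, 12 were tested, of which 2 were higher and 1 lower, against 7.84% and 5.99% of all tested genes. The median log2 fold change of the 12 was 0.02. Besides Tnfrsf1a, the higher gene was Tnfrsf21, which encodes the death domain receptor DR6. Tnfrsf21 was at 20.3, 12.2 and 21.01 CPM in DN NK1.1+ libraries, against 1.82, 2.02 and 3.29 CPM in CD8 beta+ libraries (log2 fold change 2.90, SE 0.328, edgeR adjusted p = 1.66e-05). Tnfrsf13b, which encodes TACI, a receptor best known from B cells, was at 3.28, 1.26 and 4.55 CPM in DN NK1.1+ libraries, against 12.5, 11.1 and 11.2 CPM in CD8 beta+ libraries (log2 fold change -1.93, SE 0.399, edgeR adjusted p = 0.00383). Summed markers of B cells and plasma cells were at 33.6 to 59.3 CPM in DN NK1.1+ and 39.7 to 93.9 CPM in CD8 beta+ libraries, with 0 of 9 tested markers higher and 2 lower. The highest of them, the plasma cell gene Jchain, was at 18.53, 15.7 and 18.7 CPM in DN NK1.1+ libraries and 1.95, 10.04 and 2.99 CPM in CD8 beta+ libraries, without overlap (log2 fold change 1.77, edgeR adjusted p = 0.0711). The called B cell markers Cd79b and Fcmr, named after their values were seen, had log2 fold changes of -1.32 and -1.77 (edgeR adjusted p = 0.018 and 0.0369). The part of these cells in the Tnfrsf13b result was not tested.

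**Figure D3:**
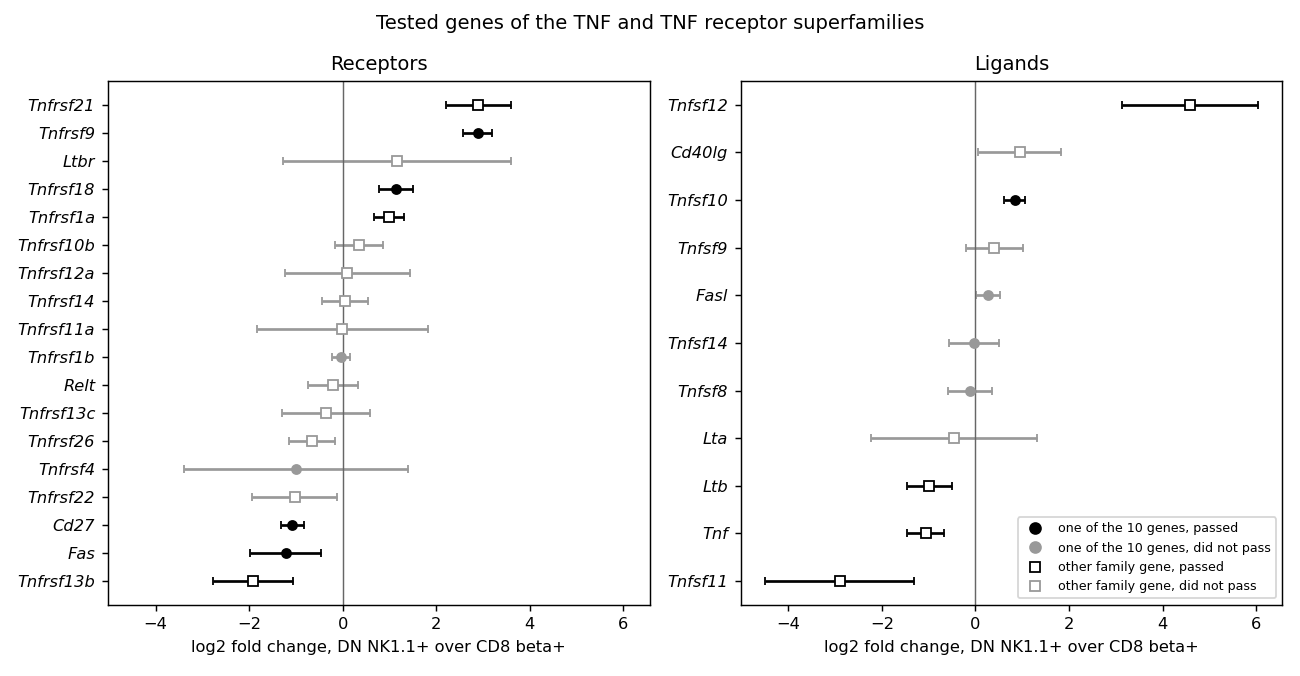
Log2 fold change of DN NK1.1+ over CD8 beta+ libraries (horizontal axis) with its 95% interval, for every tested receptor (left) and ligand (right) of the family. Circles are the 10 genes described first, squares are other family genes, and black marks those past the test. Tnfrsf9 at 2.88 and Tnfrsf21 at 2.90 lie at the top of the receptors, and the intervals of Tnfrsf4 and Ltbr are the widest there.

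Signalling genes behind these receptors were counted in the same way, against the 7.84% of all tested genes that were higher and the 5.99% that were lower. At an unadjusted p under 0.05 in edgeR, 1762 of all 13171 tested genes were higher and 1533 lower. After adjustment, DESeq2 called 1120 of all tested genes higher and 909 lower, and limma-voom called 973 and 782. Of 21 TRAF adaptors and regulators, all tested, 0 were higher and 1 was lower, with a median log2 fold change of -0.11. At an unadjusted p under 0.05, 2 were higher and 8 lower, and DESeq2 called 0 and 3 and limma-voom 0 and 1 in these directions. The lower gene, Traf1, encodes an adaptor of TNFR2 and 4-1BB and averaged 73.1 ± 6.10 CPM in DN NK1.1+ and 102 ± 16.4 CPM in CD8 beta+ libraries (SD, n = 3 each; log2 fold change -0.49, SE 0.127, edgeR adjusted p = 0.0174). Its call ended without DN NK1.1+ replicate 1 or CD8 beta+ replicate 1 or 2 (adjusted p = 0.0837 to 0.112; 0.0011 to 0.112 over all 16 settings). Of 16 death receptor signalling genes, 0 were higher and 1 was lower, with a median log2 fold change of 0.10. At an unadjusted p under 0.05, 1 was higher and 3 were lower, and DESeq2 and limma-voom each called 0 higher and 1 lower. The lower gene was Daxx, whose product binds FAS and also acts as a histone chaperone. Daxx averaged 17.0 ± 2.94 CPM in DN NK1.1+ and 35.4 ± 6.19 CPM in CD8 beta+ libraries (SD, n = 3 each; log2 fold change -1.05, SE 0.193, edgeR adjusted p = 0.00146). With lists of this size, 1 gene lower in edgeR after adjustment is near the share of all genes in both. For the TRAF list, the 8 genes lower at an unadjusted p and the 3 lower in DESeq2 were above the shares of all genes by the same measures. No test of the list was made. Casp8, the initiator caspase of the FAS and TRAIL receptors and named after its values were seen, was at 77.5 ± 3.44 CPM in DN NK1.1+ and 73.2 ± 11.7 CPM in CD8 beta+ libraries (edgeR adjusted p = 0.762).

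**Figure D4:**
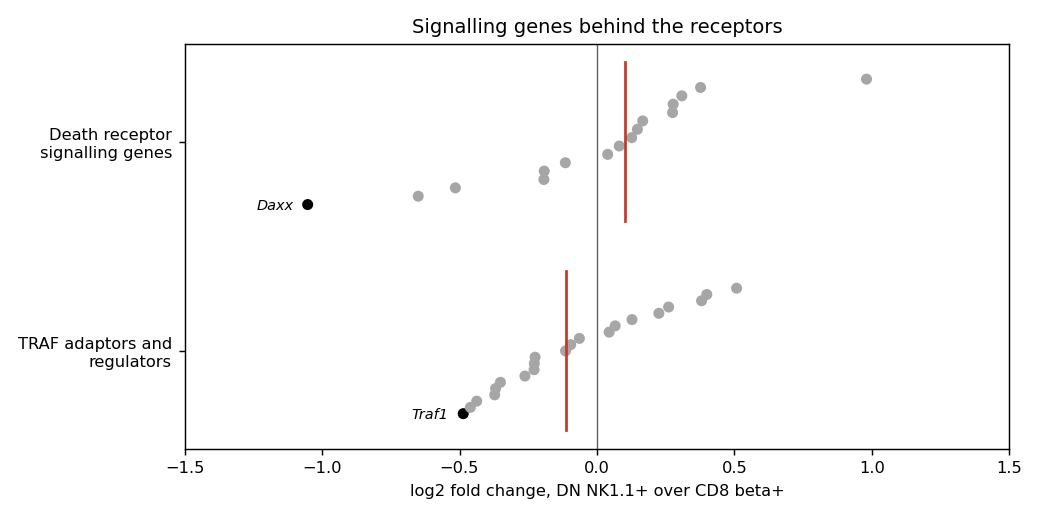
Log2 fold change of DN NK1.1+ over CD8 beta+ libraries (horizontal axis) for 16 death receptor signalling genes (top) and 21 TRAF adaptors and regulators (bottom). Each point is a gene, black points passed the test and red lines are the medians, at 0.10 and -0.11. Daxx and Traf1 are the points that passed.

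Many genes of the family lie close to each other in the genome (GENCODE M21, build mm10). On chromosome 4, Tnfrsf9 spans 150914562 to 150946102, Tnfrsf4 156013843 to 156016612 and Tnfrsf18 156026164 to 156028895. Tnfrsf1b spans 145213463 to 145246870 on the same chromosome, and Tnfrsf8 lies 20.3 kb away with no coding gene between. On chromosome 6, Cd27 (125232622 to 125237010) lies 112 kb from Tnfrsf1a. Fasl lies on chromosome 1 from 161780689 to 161788495, 275 kb from Tnfsf18 and 362 kb from Tnfsf4, with Tnfsf18 between Fasl and Tnfsf4. Tnfsf14 (chromosome 17, 57189492 to 57194177) lies 39.7 kb from Cd70 and 81.7 kb from Tnfsf9. Fas is on chromosome 19 from 34290666 to 34327772, Tnfsf10 on chromosome 3 from 27317028 to 27342427 and Tnfsf8 on chromosome 4 from 63831308 to 63861347. All of these are protein-coding genes.

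Markers of other cells moved with the groups to different degrees, and their part in these results was not tested. Of all tested genes, 7.84% were higher and 5.99% lower. Summed markers of macrophages, monocytes, neutrophils and dendritic cells were at 384 to 477 CPM in DN NK1.1+ and 183 to 287 CPM in CD8 beta+ libraries, with 2 of 11 tested higher. Itgax, which NK cells also express, made up 258 to 280 CPM of this in DN NK1.1+ libraries. Without it the sums were 104 to 219 CPM in DN NK1.1+ and 80.8 to 156 CPM in CD8 beta+ libraries, which overlap. The other higher marker was the macrophage gene Csf1r, named after its values were seen. Csf1r was at 38.7, 21.4 and 24.7 CPM in DN NK1.1+ and 12.7, 13.6 and 19.7 CPM in CD8 beta+ libraries, without overlap (edgeR adjusted p = 0.026). Luminal epithelial markers summed to 274, 763 and 1594 CPM in DN NK1.1+ and 786, 495 and 654 CPM in CD8 beta+ libraries, led by the casein gene Csn2, with 1 of 9 tested markers higher and 0 lower. The higher marker was Epcam, named after its values were seen. Epcam was at 30.8, 32.8 and 32.3 CPM in DN NK1.1+ and 7.41, 6.72 and 4.02 CPM in CD8 beta+ libraries (edgeR adjusted p = 4.06e-06). Basal and myoepithelial markers were highest in replicate 3 of both groups, at 188 CPM in DN NK1.1+ and 139 CPM in CD8 beta+ libraries, against 10.3 and 22.9 CPM in the other DN NK1.1+ libraries and 17.3 and 13.1 CPM in the other CD8 beta+ libraries. Markers of endothelial cells and fibroblasts were also highest there, at 222 CPM in DN NK1.1+ and 193 CPM in CD8 beta+ libraries, with 1 of 8 tested higher and 0 lower. The higher marker, Pecam1, was at 63.5, 47.9 and 65.2 CPM in DN NK1.1+ and 34.8, 37.9 and 22.7 CPM in CD8 beta+ libraries (edgeR adjusted p = 0.00567). Markers of regulatory and CD4 T cells summed to 47.2 to 64.5 CPM in DN NK1.1+ and 196 to 212 CPM in CD8 beta+ libraries, mostly through the pan-T gene Cd5. Without Cd5 the sums overlapped, at 37.2 to 53.6 CPM in DN NK1.1+ and 31.2 to 58.5 CPM in CD8 beta+ libraries. The calls of Tnfrsf9, Tnfrsf18, Tnfsf10 and Cd27 held without any one library, replicate 3 of either group included. No setting left out replicate 3 of both groups together, and markers that differ in all libraries of a group stay in every setting. The part of these cells in the calls was therefore not tested by leaving out a library.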

How the data were processed

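Bulk RNA-seq libraries of mammary lymphocytes were made from sorted cells with Qiagen RNeasy Micro and Tecan Solo mouse kits, per the labels' protocols. The table deposited by the authors holds estimated counts per gene, a unit inferred here from values with up to 2 decimals and from unequal library totals. The submitters' processing notes name Cell Ranger 7.1.0, a single-cell program, and the mm10 build. For the bulk data, aligner, counter, annotation and use of strand are not given in the sources used. Gene symbols stand under the heading of the IDs and the reverse, and were read accordingly. All 55450 IDs matched GENCODE M21.

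Counts were rounded and tested in edgeR 4.0.16 (R 4.3.3; TMM, robust quasi-likelihood fit, group alone). Filtering by expression (at least 10 counts, and 15 in total) left 13171 genes, the 10 described ones included. Two-sided p-values were corrected with the Benjamini-Hochberg method across these genes. SEs come from the F statistic. TPM used merged exon lengths. A single count was worth 0.0722 to 0.130 CPM, which sets the precision for low genes, and intervals from counts cover counting error only. Chi-square per degree of freedom between libraries of a group was 9.46 to 25.7, so none was a copy. The fit was tested on simulated data.

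The members and gene lists were chosen with earlier results of these data known. Named genes are the 10 members, their partners, every called gene of the wider lists with at least 5 CPM, the sort genes and list markers, plus the closest genes by correlation to the members with the largest called rise and fall. The alternatives were RLE, upper quartile and library size scaling, DESeq2 1.42.0, limma-voom (limma 3.58.1), other filters, unrounded counts, a fit that was not robust, a replicate block and leaving out each library. Single-cell data of the study were not analysed here.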

Additional observations from a re-analysis of the deposited data

How the results depend on the processing

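Of 16 alternatives for each gene, all kept the direction and call of Tnfrsf9, Tnfrsf18, Tnfsf10 and Cd27. Tnfrsf4 (0 to 19 counts a library) and Fas (28 to 133) had few counts, and their values moved with single libraries. Counting error and spread between libraries were not separated. Leaving out 1 library gave 681 to 1093 genes higher and 499 to 883 lower (1033 and 789 with all libraries, and the lowest counts of 681 and 499 without CD8 beta+ replicate 1). It gave 3 to 4 of the 10 genes higher and 1 to 2 lower. It gave 1 of the other ligands higher and 1 to 3 lower, and 2 of the other receptors higher and 1 to 3 lower. For the TRAF list it gave 0 to 1 higher and 0 to 4 lower, and for the death receptor list 0 to 2 higher and 1 to 2 lower. Without a filter on low counts, 2 other receptors were lower, 1 TRAF gene was higher and 3 lower, and 1 death receptor gene was higher. Library size scaling gave 1 TRAF gene higher. The TRAF genes lower were 2 with RLE, and 3 with upper quartile scaling, DESeq2 and the stricter filter (minimum count 30). The cause was not tested. Directions turned for values near 0: Tnfrsf1b to 0.00588 (library size only) and 0.016 (without CD8 beta+ replicate 3; -0.0841 to 0.016 with 1 library left out), Tnfsf14 to 0.0145 (library size only), 0.0358 (limma-voom), 0.0925, 0.0518 and 0.0526 (without DN NK1.1+ replicate 1, CD8 beta+ replicate 1 or 3; -0.21 to 0.0925), Tnfsf8 to 0.0919 (without DN NK1.1+ replicate 3; -0.312 to 0.0919), and Tnfrsf14 to -0.00236, -0.0148, -0.0501 and -0.0656 (without replicate 1 or 3 of DN NK1.1+ or of CD8 beta+; -0.0656 to 0.263). Summed TPM of the 10 genes was 674 in DN NK1.1+ and 493 in CD8 beta+ libraries, 666 to 686 and 452 to 516 with 1 library left out, and 630.1 in DN NK1.1+ libraries with the longest transcript as length.

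The titles number the libraries 1 to 3 in each group, and deviations of same-numbered libraries correlated at -0.05, 0.189 and 0.256. Differently numbered libraries of the 2 groups correlated at -0.254 to 0.106. The numbers were not taken to pair the libraries, and a shared origin of same-numbered libraries was not tested. Of 6 libraries, 4 correlated best with their own number. With a replicate block, 1137 genes were higher and 945 lower, 3 of the 10 genes higher and 2 lower, 2 TRAF genes lower and 1 death receptor gene higher.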
